A study of Homo sapiens with 18 samples.

Results

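Naive pluripotency markers are genes whose RNA is abundant in the naive state, the state of human pluripotent stem cells that resembles the preimplantation epiblast, and low in the primed state in which human embryonic stem cells are usually grown. The 10 markers described here, KLF4, KLF5, KLF17, TFCP2L1, TFCP2, TFAP2C, DPPA3, DPPA5, SUSD2 and ARGFX, were taken by gene symbol from the 27130 symbols of the deposited read count tables, and all 10 were present. The study removed ZNF263, a C2H2 zinc finger transcription factor, from the human embryonic stem cell lines H1 and H9 and sequenced polyadenylated RNA from 18 libraries. The replicated groups of 3 libraries each were the homozygous H1 knockout clone 1-10 and H1 wild type, and the homozygous H9 knockout clones 9-1 and 9-D and H9 wild type. A separate set of H1 libraries held 1 library each of the heterozygous knockout clone 1-5, the homozygous knockout clone 1-10 and wild type. Each knockout group came from 1 clone, both H9 clones were set against the same 3 wild-type libraries, and the labels do not say whether replicates were separate cultures or whether H1 and H9 were processed together. P-values therefore measure the spread between these libraries, which may be technical.

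As background, naive cells rely on a transcription factor network in which Krueppel-like factors (KLF4, KLF5 and KLF17), the CP2 family factor TFCP2L1 and the AP-2 factor TFAP2C keep preimplantation enhancers active. Forced expression of Krueppel-like factors has been used to move primed cells towards that state, and DPPA3, DPPA5 and the surface protein SUSD2 are read as its outputs. TFCP2 is the widely expressed relative of TFCP2L1 and is not specific to naive cells, and ARGFX is a homeobox gene of the early embryo.

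The libraries held 9663550 to 21007799 counted reads in the replicated groups and 11142701 to 13395335 in the single ones. The cells had the core factors of an embryonic stem cell: POU5F1 lay between 1360 and 2090 CPM, NANOG between 42.7 and 83.4 CPM and SOX2 between 381 and 473 CPM across the 15 replicated libraries. CPM are counts-per-million, here after TMM scaling over these 15 libraries. ZNF263 RNA was still counted in every knockout library, at 34.2 ± 1.86 CPM in H1 clone 1-10 against 40.9 ± 1.26 CPM in H1 wild type, and at 35.9 ± 1.21 CPM in the 6 H9 knockout libraries against 42 ± 2.23 CPM in the 3 of H9 wild type (mean ± SD). It fell by 0.27 in H1 and 0.23 in H9 on the log2 scale (adjusted p = 0.0156 and 0.0046, edgeR quasi-likelihood F test, Benjamini-Hochberg), and the edited part of the gene is not given in the labels, so these counts check the labels only in part.

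Per kilobase of exon, TFCP2 was the most abundant marker in all 5 replicated groups, at 21.8 CPM per kb in H1 clone 1-10 and 21 in H1 wild type, and at 16.3 in H9 clone 9-1, 15.5 in clone 9-D and 9.1 in H9 wild type. The marker in second place differed between the lines. It was KLF4 in H9, at 12.5 CPM per kb in clone 9-1, 13.6 in clone 9-D and 8.52 in wild type, and DPPA3 in H1, at 2.09 in clone 1-10 and 1.99 in wild type. KLF4 itself was at 0.989 CPM per kb in H1 clone 1-10 and 0.753 in H1 wild type, next to TFAP2C at 0.98 and 0.82, so that these neighbours in H1 lay close together. ARGFX and KLF17 were in the ninth and the tenth place in every group. Of the 10 markers, 7 passed the filter on low counts in both lines, and KLF17, DPPA5 and ARGFX did not.

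**Figure D1:**
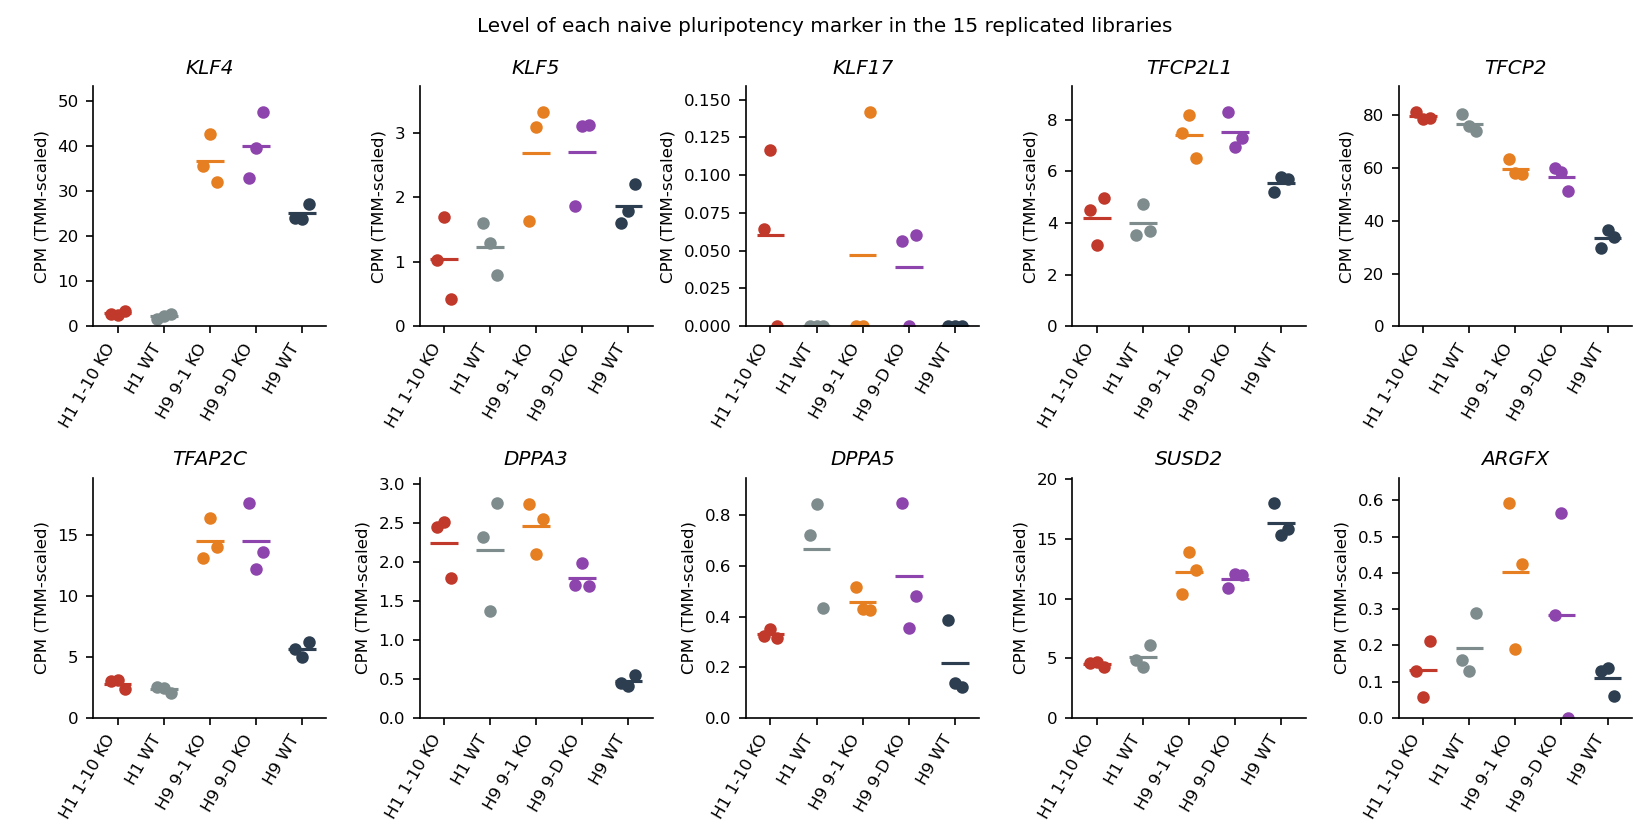
Level of each marker in the 15 replicated libraries, 1 panel per gene, with CPM after TMM scaling on the vertical axis, a point per library and a horizontal bar at the mean of each group. The H9 knockout points lie above the H9 wild-type points for KLF4, TFCP2L1, TFCP2, TFAP2C and DPPA3 and below them for SUSD2, while the H1 groups overlap for each of the 7 markers that could be tested; KLF17 reaches at most 2 counts in a library.

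RefSeq promoter sequence on GRCh38.p14 was available for 7 of the 10 markers (not for TFAP2C, SUSD2 and ARGFX). Each window holds the 250 bases before the RefSeq start of the gene, and the windows of KLF4, TFCP2L1, TFCP2 and DPPA3 are shown because these 4 genes were higher in the H9 knockouts. Capitals mark GGAGGA or its reverse complement TCCTCC, the purine repeat at the core of the motif reported for ZNF263. KLF4 lies at chr9:107489770-107490019 on the minus strand, TFCP2L1 at chr2:121285203-121285452 on the minus strand, TFCP2 at chr12:51173136-51173385 on the minus strand and DPPA3 at chr12:7711183-7711432 on the plus strand.
KLF4: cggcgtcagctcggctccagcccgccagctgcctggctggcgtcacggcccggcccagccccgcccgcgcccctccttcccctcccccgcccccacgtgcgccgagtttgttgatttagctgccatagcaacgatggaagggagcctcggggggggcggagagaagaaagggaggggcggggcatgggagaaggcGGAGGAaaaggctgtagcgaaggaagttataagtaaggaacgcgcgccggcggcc
TFCP2L1: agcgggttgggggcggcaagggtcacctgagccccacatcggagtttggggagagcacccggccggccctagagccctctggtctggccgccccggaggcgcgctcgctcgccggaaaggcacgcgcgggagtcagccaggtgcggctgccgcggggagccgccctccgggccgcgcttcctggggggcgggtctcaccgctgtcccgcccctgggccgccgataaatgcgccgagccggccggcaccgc
TFCP2: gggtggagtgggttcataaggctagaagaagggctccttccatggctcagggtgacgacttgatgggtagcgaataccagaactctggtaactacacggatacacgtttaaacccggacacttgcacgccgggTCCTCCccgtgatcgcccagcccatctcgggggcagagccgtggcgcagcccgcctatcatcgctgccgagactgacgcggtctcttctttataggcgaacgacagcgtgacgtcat
DPPA3: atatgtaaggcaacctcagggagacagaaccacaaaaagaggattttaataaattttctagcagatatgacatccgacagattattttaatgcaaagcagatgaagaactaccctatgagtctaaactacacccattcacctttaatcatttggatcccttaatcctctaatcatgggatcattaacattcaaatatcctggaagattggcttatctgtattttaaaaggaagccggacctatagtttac
The KLF4 and TFCP2 windows held 1 match each and the TFCP2L1 and DPPA3 windows held 0, and 31.8% of all 35116 promoter windows of this length hold at least 1 match. This search and those that follow read both strands. The windows also differed in base composition. The GC content was 69.2% in KLF4, 76.8% in TFCP2L1, 58.8% in TFCP2 and 35.6% in DPPA3, where the median over all windows was 58%. DPPA3 had 2 CG dinucleotides and the other 3 had 21 to 32, against a median of 11. The GC box GGGCGG, present in 42.6% of all windows, occurred 4 times in KLF4, 5 times in TFCP2L1 and in neither TFCP2 nor DPPA3. The AP-2 type letters GCCNNNGGC were found once in KLF4 and in none of the other 3 (19.8% of all windows), and the CP2 type letters, CTGG repeated after any 6 bases (3.27%), and the octamer ATGCAAAT (1.63%) were in none of the 4. A match is a run of letters and was not tested as a binding site.

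In H9, 5 of the 7 tested markers rose in the knockouts and 1 fell, where 29.7% of all 15411 genes tested were called (14.4% higher and 15.3% lower). DPPA3 rose most, then TFAP2C, TFCP2, KLF4 and TFCP2L1, by 1.34-fold to 4.37-fold, and SUSD2 fell. DPPA3 passed the filter on low counts only through its knockout libraries, which favours a rise. KLF5 did not pass the threshold. TFCP2, counted among the 5 that rose, is not specific to naive cells. The median log2 fold change of the 7 tested markers was 0.61, against -0.004 over all genes tested. In bulk RNA, more cells with a transcript and more transcript per cell cannot be told apart.

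KLF4, a zinc finger factor used in reprogramming, was at 35.6, 42.7 and 31.9 CPM in clone 9-1 and at 32.9, 39.5 and 47.6 CPM in clone 9-D, against 24, 23.9 and 27.2 CPM in H9 wild type. Every knockout library was above every wild-type library. The log2 fold change over both clones was 0.61 (SE 0.096), with an adjusted p of 8.94e-06 (edgeR quasi-likelihood F test, Benjamini-Hochberg). KLF5, a related factor active in the trophectoderm and naive epiblast, was at 1.63, 3.1 and 3.33 CPM in clone 9-1 and 1.86, 3.11 and 3.13 CPM in clone 9-D, against 1.61, 1.79 and 2.21 CPM in H9 wild type. Replicate 1 of each clone lay among the wild-type values and the other 4 knockout libraries lay above them. Its log2 fold change of 0.52 (SE 0.234) missed the threshold (adjusted p = 0.093, edgeR quasi-likelihood F test, Benjamini-Hochberg), with a 95% interval of 0.04 to 1 before adjustment. It passed without replicate 1 of clone 9-1 (adjusted p = 0.0356, same test) or without replicate 1 of clone 9-D (adjusted p = 0.0431, same test).

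TFCP2, the widely expressed CP2 factor, was at 63.5, 58 and 57.9 CPM in clone 9-1 and 60, 58.5 and 51.3 CPM in clone 9-D, against 29.7, 36.6 and 33.7 CPM in H9 wild type. The groups were far apart, and TFCP2 rose 1.74-fold (log2 fold change 0.80, SE 0.0704, adjusted p = 1.84e-10, edgeR quasi-likelihood F test, Benjamini-Hochberg). TFCP2L1, the family member that belongs to the naive network, was at 7.47, 8.2 and 6.51 CPM in clone 9-1 and 8.31, 6.93 and 7.29 CPM in clone 9-D, against 5.22, 5.77 and 5.7 CPM in H9 wild type. These groups did not overlap either, but the difference was smaller (log2 fold change 0.42, SE 0.124, adjusted p = 0.00917, edgeR quasi-likelihood F test, Benjamini-Hochberg), and it lost its call without H9 wild-type replicate 1 (adjusted p = 0.06, same test). Of the other 4 genes of the CP2 and grainyhead family, GRHL3, an epithelial factor, rose from low counts, at 2.23 ± 0.445 CPM in the 6 knockout libraries and 0.891 ± 0.45 CPM in wild type (log2 fold change 1.31, adjusted p = 0.000514, edgeR quasi-likelihood F test, Benjamini-Hochberg). GRHL2, an epithelial relative, and UBP1, a close relative of TFCP2, did not pass in the joint H9 test, with adjusted p of 0.113 and 0.127 (same test), and both rose in H1, by 0.27 and 0.24 on the log2 scale (adjusted p = 0.0198 and 0.00234, same test). In clone 9-1 alone UBP1 and GRHL1, an epithelial relative named after its value was seen, also passed, with log2 fold changes of 0.15 and 0.55 (adjusted p = 0.0449 and 0.0184, same test), and in clone 9-D neither did (adjusted p = 0.552 and 0.947, same test). The difference between the clones did not pass for either gene (adjusted p = 0.791 and 0.32, same test).

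TFAP2C, the AP-2 gamma factor that opens naive enhancers and is also used by trophoblast and germ cells, was at 13.1, 16.4 and 14 CPM in clone 9-1 and 17.6, 12.2 and 13.6 CPM in clone 9-D, against 5.67, 4.95 and 6.25 CPM in H9 wild type. The lowest knockout library was about as far above the highest wild-type library as the knockout libraries were spread, and TFAP2C rose 2.57-fold (log2 fold change 1.36, SE 0.125, adjusted p = 4.29e-10, edgeR quasi-likelihood F test, Benjamini-Hochberg). Of the 20 trophoblast and amnion markers, 8 passed the filter, of which 2 rose and 1 fell. Of all genes tested in H9, 14.4% rose and 15.3% fell. GATA2, a trophoblast factor, was at 2.37 ± 0.265 CPM in the H9 knockouts and 0.557 ± 0.103 CPM in wild type, and KRT7, a simple epithelial keratin, at 5.01 ± 1.07 CPM in the knockouts and 7.81 ± 0.141 CPM in wild type (adjusted p = 5.82e-07 and 0.000935, edgeR quasi-likelihood F test, Benjamini-Hochberg). GATA2 passed the filter through the knockout libraries, which favours a rise. The summed level of the 20 markers was 26.5 to 36.3 CPM in the H9 knockout libraries and 29.7 to 30.7 CPM in wild type, and ELF5, VGLL1 and XAGE2 had 0 counts in all of them. Of the 15 germ cell genes, 10 passed the filter, 4 rose and 1 fell, beside the same 14.4% and 15.3% of all genes. UTF1, a chromatin protein of pluripotent and germ cells, rose with a log2 fold change of 0.82 (adjusted p = 2.54e-08), and KIT, a receptor of migrating germ cells, fell by 0.48 (adjusted p = 1.7e-06, edgeR quasi-likelihood F test, Benjamini-Hochberg). The part of other cell types in the TFAP2C difference was not tested.

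DPPA3, also called STELLA, protects the maternal genome from demethylation in mouse embryos, and it was low in every library. Its level was 2.74, 2.1 and 2.55 CPM in clone 9-1 and 1.7, 1.98 and 1.69 CPM in clone 9-D, against 0.451, 0.412 and 0.552 CPM in H9 wild type. No knockout value came near the wild-type values, and DPPA3 rose 4.37-fold (log2 fold change 2.13, SE 0.304, adjusted p = 2.07e-06, edgeR quasi-likelihood F test, Benjamini-Hochberg). The H9 wild-type libraries held 7, 6 and 9 counts, under the 10 of the filter, so DPPA3 passed it through the knockout libraries. Passing that way favours a rise, and the call was the same without the filter. DPPA3 has 12 named pseudogenes in RefSeq, none of them in the count tables, so reads shared with them cannot be told apart. SUSD2, a cell surface protein used to sort naive cells, went the other way. It was at 10.4, 13.9 and 12.4 CPM in clone 9-1 and 10.9, 12.1 and 12 CPM in clone 9-D, against 18, 15.3 and 15.8 CPM in H9 wild type, with no overlap. SUSD2 fell by 0.45 on the log2 scale (SE 0.0945, adjusted p = 0.000424, edgeR quasi-likelihood F test, Benjamini-Hochberg). Of the 7 tested markers, the knockout libraries were all higher than wild type for 5 and all lower for 1, where 13.2% of all genes tested were all higher and 13.4% all lower.

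Each H9 clone on its own gave the same calls, 5 higher and 1 lower of 7 tested. The background for clone 9-1 against wild type was 12.8% of genes higher and 13.5% lower, and for clone 9-D 11.5% higher and 12% lower. The libraries of each clone were all above wild type for the same 5 markers and all below for SUSD2, where 20.7% and 19.6% of genes were so placed in 9-1, and 17.9% each way in 9-D. The clones share their wild-type libraries, so these are not separate tests. The log2 fold changes of KLF4 were 0.56 in 9-1 and 0.67 in 9-D, those of TFCP2 were 0.84 and 0.76, and those of TFAP2C were 1.37 and 1.36. DPPA3 was at 2.33 and 1.89, TFCP2L1 at 0.42 and 0.43, and SUSD2 at -0.41 and -0.49. The TFCP2L1 calls of single clones were near the threshold (adjusted p = 0.0283 in 9-1 and 0.024 in 9-D, edgeR quasi-likelihood F test, Benjamini-Hochberg) and were lost with DESeq2 (adjusted p = 0.065 and 0.0542, Wald test with Benjamini-Hochberg adjustment). Without H9 wild-type replicate 1 the TFCP2L1 adjusted p was 0.108 in 9-1 and 0.0961 in 9-D, and without wild-type replicate 3 it was 0.0587 and 0.0509 (edgeR quasi-likelihood F test, Benjamini-Hochberg). TFCP2L1 also lost its call in 9-1 without replicate 1 or 2 of that clone (adjusted p = 0.0586 and 0.177) and in 9-D without replicate 1 of that clone (adjusted p = 0.112, same edgeR test). Without replicate 1 of clone 9-1, SUSD2 lost its call in that clone (adjusted p = 0.0552) and KLF5 gained one (adjusted p = 0.0339, same edgeR test).

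Between the clones, 9-D against 9-1, 0 of the 7 tested markers passed, where 0.305% of all genes did (0.162% higher and 0.143% lower). No marker had an unadjusted p under 0.05 in edgeR, and DESeq2 called 0 as well. The widest gap was in DPPA3, where all 3 libraries of clone 9-D were lower than all 3 of clone 9-1, as they were for 5.66% of all genes tested (6.05% were all higher). Its log2 difference was -0.45, with a 95% interval of -0.95 to 0.06 (adjusted p = 0.776, edgeR quasi-likelihood F test, Benjamini-Hochberg). The intervals of the other 6 differences reached from -0.53 to 0.48 in KLF5, the widest, and from -0.23 to 0.07 in TFCP2, the narrowest.

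**Figure D2:**
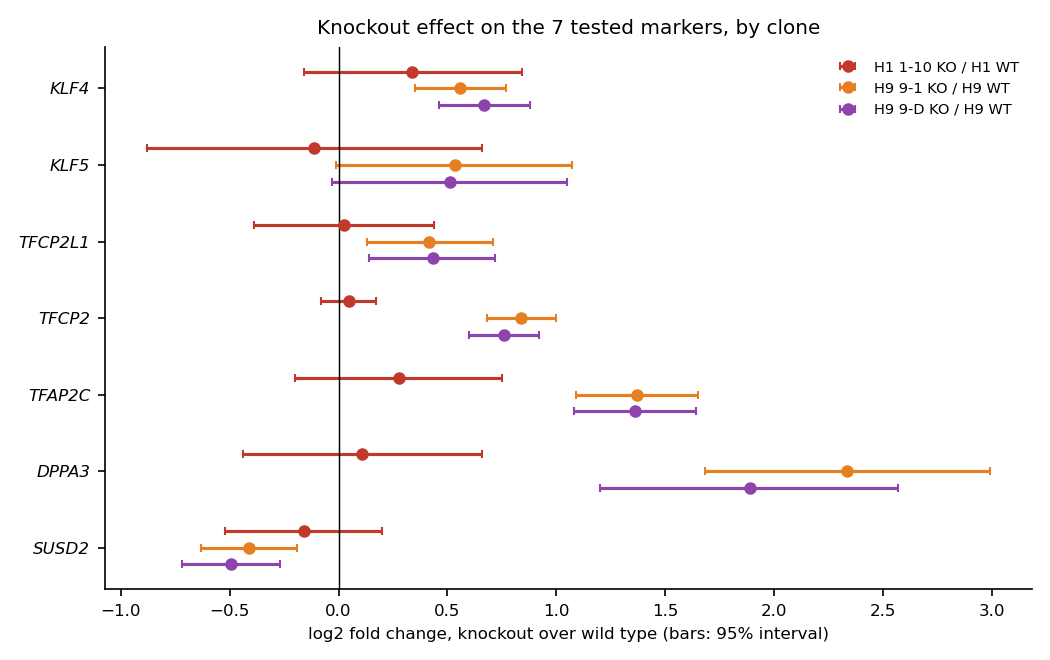
Log2 fold change of the 7 tested markers, knockout over wild type, for H1 clone 1-10 and H9 clones 9-1 and 9-D, with 95% intervals of the edgeR fits as bars. The H1 intervals all include 0, and the intervals of both H9 clones lie above 0 for KLF4, TFCP2L1, TFCP2, TFAP2C and DPPA3 and below 0 for SUSD2.

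In H1, 0 of the 7 tested markers passed the threshold in clone 1-10, where 12.3% of all 14897 genes tested were called (5.01% higher and 7.25% lower). None had an unadjusted p under 0.05 in edgeR, and DESeq2 called 0 as well. Both groups overlapped for each of the 7, where 15.3% of genes tested were all higher and 14.5% all lower. KLF4 was at 2.7, 2.51 and 3.48 CPM in clone 1-10, against 1.68, 2.34 and 2.61 CPM in H1 wild type, and replicate 3 of the clone was the highest library. Its log2 fold change was 0.34, with a 95% interval of -0.16 to 0.84 (adjusted p = 0.404, edgeR quasi-likelihood F test, Benjamini-Hochberg). That interval includes 0.61, the value in H9.

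TFCP2 in H1 was at 81.4, 78.6 and 79.1 CPM in clone 1-10, against 80.7, 75.8 and 74 CPM in wild type. These values were nearly equal, and the interval of the log2 fold change, -0.08 to 0.17, did not reach the 0.80 seen in H9. TFCP2L1 was at 4.5, 3.15 and 4.96 CPM in clone 1-10, against 3.53, 4.75 and 3.69 CPM in wild type (log2 fold change 0.02, interval -0.39 to 0.44). TFAP2C was at 3.02, 3.09 and 2.32 CPM in clone 1-10, against 2.56, 2.47 and 2.03 CPM in wild type (log2 fold change 0.28, interval -0.2 to 0.75). For both factors the clone held the highest of the 6 libraries and also 1 library under the wild-type median. DPPA3 was at 2.44, 2.51 and 1.79 CPM in clone 1-10, against 2.32, 1.37 and 2.75 CPM in wild type, a level that the H9 knockouts share and H9 wild type does not. Its log2 fold change was 0.11, with an interval of -0.44 to 0.66. SUSD2 was at 4.57, 4.72 and 4.22 CPM in clone 1-10, against 4.81, 4.29 and 6.08 CPM in wild type (log2 fold change -0.16, interval -0.52 to 0.2). KLF5 was the noisiest of the 7, at 1.03, 1.69 and 0.422 CPM in clone 1-10, against 1.6, 1.3 and 0.796 CPM in wild type (log2 fold change -0.11, interval -0.88 to 0.66). The adjusted p of these 6 markers lay between 0.482 and 0.959 (edgeR quasi-likelihood F test, Benjamini-Hochberg).

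The difference between the lines was tested itself, as the H9 effect minus the H1 effect in a fit of all 15 replicated libraries. In that fit 8 markers passed the filter, and 4 had a higher effect in H9, where 9.21% of 15802 genes differed (5.21% higher in H9 and 4% lower). The difference in log2 fold change was 0.75 for TFCP2 (SE 0.0946, adjusted p = 1.42e-07), 1.08 for TFAP2C (SE 0.259, adjusted p = 0.00417) and 2 for DPPA3 (SE 0.418, adjusted p = 0.000815, edgeR quasi-likelihood F test, Benjamini-Hochberg). DPPA5, which entered this fit only, differed by 2.21 (SE 0.722, adjusted p = 0.0441, same test), on 2 to 15 counts a library. Its highest levels were 0.721 and 0.845 CPM in H1 wild-type replicates 1 and 2 and 0.848 CPM in replicate 1 of clone 9-D. These libraries carried it towards the filter and also raise this difference. The DPPA5 call was lost with DESeq2 (adjusted p = 0.101), without the filter on low counts (adjusted p = 0.082) and in 11 of the 15 fits that left out a library (adjusted p up to 0.133, edgeR quasi-likelihood F test, Benjamini-Hochberg). For KLF4 the difference was 0.29 with an interval of -0.26 to 0.83, for KLF5 0.63 with an interval of -0.3 to 1.56, for TFCP2L1 0.40 with an interval of -0.06 to 0.86 and for SUSD2 -0.30 with an interval of -0.68 to 0.09. None of these 4 passed (adjusted p from 0.318 to 0.6, edgeR quasi-likelihood F test, Benjamini-Hochberg), so the lines are not shown to differ in their response of these markers, nor to be alike.

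The unedited lines differed in most markers. In H9 wild type, 4 of 8 tested markers were higher and 3 lower than in H1 wild type, where 52.7% of all genes were called (27.1% higher and 25.6% lower). KLF4 was 11.2-fold higher in H9 wild type, at 25 ± 1.89 CPM against 2.21 ± 0.475 CPM in H1 wild type (n = 3 each; log2 fold change 3.49, SE 0.166, adjusted p = 6.15e-21, edgeR quasi-likelihood F test, Benjamini-Hochberg). SUSD2 was 3.24-fold and TFAP2C 2.39-fold higher in H9. TFCP2L1 was higher by 0.47 on the log2 scale (adjusted p = 0.021, same edgeR test), a call lost without any 1 of 4 wild-type libraries. These were H1 replicates 1 and 3 (adjusted p = 0.0897 and 0.0787) and H9 replicates 2 and 3 (adjusted p = 0.0542 and 0.0549, same edgeR test). KLF5 did not pass (adjusted p = 0.135, same edgeR test), although its libraries did not overlap. They were barely apart, at 1.61 CPM in the lowest H9 and 1.6 CPM in the highest H1 wild-type library. In all, 5 markers were higher in every H9 wild-type library and 3 lower, where 30% and 28.3% of genes were so placed.

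Lower in H9 wild type than in H1 wild type were TFCP2 (0.434-fold), DPPA3 (0.226-fold) and DPPA5 (0.33-fold). The DPPA5 call was lost without H1 wild-type replicate 2 (adjusted p = 0.0768) or without H9 wild-type replicate 2 or 3 (adjusted p = 0.056 and 0.0718, edgeR quasi-likelihood F test, Benjamini-Hochberg). TFCP2 and DPPA3 thus stood lower in H9 wild type than in H1 wild type, and both were higher in the H9 knockouts than in H9 wild type. For TFCP2 the means were 58.2 ± 3.99 CPM in the H9 knockouts, 33.3 CPM in H9 wild type and 76.8 CPM in H1 wild type. For DPPA3 they were 2.12 ± 0.436 CPM in the H9 knockouts, 0.472 CPM in H9 wild type and 2.15 CPM in H1 wild type. Both sets of values share the H9 wild-type libraries, and line and any batch cannot be told apart.

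The markers KLF17, DPPA5 and ARGFX were too low to measure well. KLF17, a factor restricted to naive cells, had 1, 2 and 0 counts in H1 clone 1-10, 0, 0 and 2 in H9 clone 9-1 and 1, 0 and 1 in clone 9-D. It had 0 counts in all 6 replicated wild-type libraries, which allows up to 0.0725 CPM in H1 wild type and 0.0665 CPM in H9 wild type at a floor of 3 counts over the group. The knockout groups were at or about that floor, so no fold is given. ARGFX had 8, 4 and 6 counts in clone 9-1 and 5, 8 and 0 in clone 9-D, against 2, 2 and 1 in H9 wild type. The ratio of its summed CPM was 2.96, with a 95% counting interval of 1.14 to 9.76, and the groups overlapped through the library with 0. In H1 it had 2, 1 and 2 counts in clone 1-10, against 2, 2 and 4 in wild type, a ratio of 0.617 (0.159 to 2.14). ARGFXP2, a pseudogene of ARGFX that the tables count separately, reached at most 8 counts in a library.

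DPPA5, an RNA-binding KH-domain protein of pluripotent cells, had 7, 9 and 6 counts in clone 9-1 and 15, 5 and 8 in clone 9-D, against 6, 2 and 2 in H9 wild type. The ratio of its summed CPM was 2.39 (95% counting interval 1.2 to 5.28). In H1 it had 5, 6 and 3 counts in clone 1-10, against 9, 13 and 6 in wild type, a ratio of 0.494 (0.24 to 0.97). DPPA5 has 4 named pseudogenes in RefSeq, none of them in the count tables, so reads shared with them cannot be told apart. In the replicated libraries the direction of the ratio was opposite in the lines. Every H1 knockout library was lower in CPM than every H1 wild-type library, as for 14.5% of genes tested in H1. In the single H1 libraries the ratio went the other way, at 1.66 in clone 1-10 (0.238 to 18.4) and 2.11 in clone 1-5 (0.346 to 22.2). These intervals cover counting error only and not the spread between libraries. Without the filter on low counts, edgeR called none of KLF17, DPPA5 and ARGFX in H9, with adjusted p of 0.317, 0.1 and 0.12, and none in H1, with adjusted p of 0.424, 0.339 and 0.777 (quasi-likelihood F test, Benjamini-Hochberg). In the authors' deposited table, DPPA5 and ARGFX in H9 had log2 fold changes of 1.25 and 1.62 with adjusted p of 0.151 and 0.193. For the 7 tested markers, the authors' deposited table gave the same 5 higher and 1 lower in H9 and 0 called in H1, at the same threshold.

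The single H1 libraries, with 1 per group and no test, are given in CPM by total count. KLF4 was at 10.8 CPM in heterozygous clone 1-5 and 4.11 CPM in homozygous clone 1-10, against 4.4 CPM in wild type. Its ratio was 2.47 in clone 1-5 (95% counting interval 1.77 to 3.49) and 0.934 in clone 1-10 (0.624 to 1.4). DPPA3 was at 1.82 CPM in clone 1-5 and 2.31 CPM in clone 1-10, against 0.718 CPM in wild type, on 24 and 31 counts in the clones and 8 in wild type. Its ratio was 2.54 (1.1 to 6.53) in clone 1-5 and 3.22 (1.45 to 8.12) in clone 1-10. KLF5 in clone 1-10 had a ratio of 2.04 (0.98 to 4.56). Past 2-fold with at least 10 counts over both libraries, 2 of the 7 markers were higher in clone 1-5 and 2 in clone 1-10, where 1.83% and 1.42% of all genes were, and 0 were lower, where 2.3% and 2.82% of genes were.

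The DPPA3 ratio of clone 1-10, 3.22 in the single libraries, stands beside a fold change of 1.08 in the replicated ones. Clone 1-10 was at a like level in both sets, 2.31 CPM in the single library and 2.25 ± 0.395 CPM in the replicated ones, while wild type was at 0.718 CPM in the single library and 2.15 ± 0.709 CPM in the replicated ones (SD, n = 3). TFAP2C was at 3.49 CPM in clone 1-5 and 3.06 CPM in clone 1-10, against 2.15 CPM in wild type. TFCP2 was at 70.3 CPM in clone 1-5 and 80.6 CPM in clone 1-10, against 81.3 CPM in wild type. The TFCP2 ratio in clone 1-5 was 0.865 (0.788 to 0.949), and no other ratio of the 7 markers in these libraries had an interval that ended below 1. SUSD2 was at 4.48 CPM in clone 1-5 and 4.85 CPM in clone 1-10, against 5.29 CPM in wild type, with intervals of both ratios that included 1. TFCP2L1 was at 2.43 CPM in clone 1-5 and 2.76 CPM in clone 1-10, against 2.78 CPM in wild type. In clone 1-5, clone 1-10 and wild type, KLF17 had 0, 1 and 0 counts, DPPA5 had 5, 4 and 2 and ARGFX had 1, 0 and 2.

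**Figure D3:**
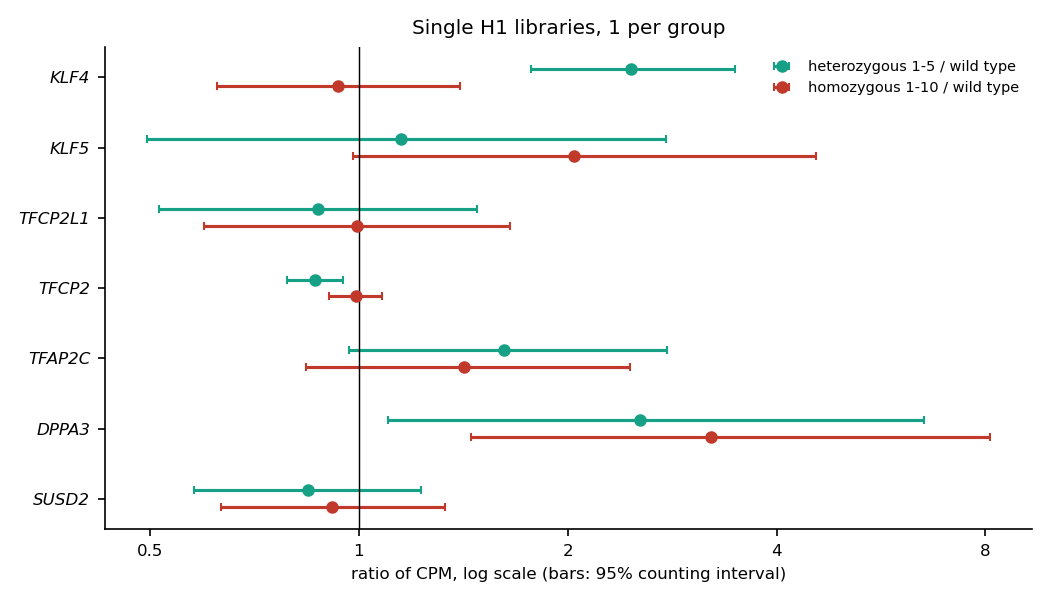
Ratio of CPM in the single H1 libraries, heterozygous clone 1-5 over wild type and homozygous clone 1-10 over wild type, on a log axis with 95% counting intervals as bars. The intervals lie above 1 for DPPA3 in both clones and for KLF4 in clone 1-5 only, and there is 1 library per group.

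The remaining genes of the naive state were read from a list of 26, chosen with earlier results of these data known. Of the 16 that passed the filter in H9, 11 rose and 0 fell, where 14.4% of all genes tested rose and 15.3% fell. The median log2 fold change of the 16 was 0.79. TBX3, FGF4 and ALPP among them were at 0.531, 0.519 and 0.551 CPM in H9 wild type and at 2.18, 2.24 and 1.3 CPM in the knockouts. Genes this low in wild type passed the filter through the knockout libraries, which favours a rise in this count and median. TFE3, a lysosome-linked factor whose place in the nucleus marks the naive state in mouse cells, was at 247 ± 7.65 CPM in the H9 knockouts and 121 ± 5.6 CPM in wild type. ZFP42, also called REX1, was at 225 ± 8.99 CPM in the knockouts and 121 ± 5.35 CPM in wild type. DPPA4, a chromatin protein of pluripotent cells, was at 853 ± 30.6 CPM in the knockouts and 674 ± 14.4 CPM in wild type, and DNMT3L, a cofactor of DNA methyltransferases, at 5.81 ± 1.37 CPM in the knockouts and 2.19 ± 0.134 CPM in wild type. The adjusted p of these 4 lay between 3.97e-16 and 1.3e-06 (edgeR quasi-likelihood F test, Benjamini-Hochberg). In H1, where 5.01% of all genes tested rose and 7.25% fell, 12 of the list passed the filter. Of these, 2 rose and 1 fell, with a median of -0.12. The lower one, named after its value was seen, was ST6GAL1, a sialyltransferase (log2 fold change -0.17, adjusted p = 0.0366, same edgeR test). TFE3 and DPPA4 rose there too, by 0.27 and 0.19 on the log2 scale (adjusted p = 0.00296 and 0.0024, same edgeR test). ZNF729, SPIC and TRIM60 had 0 counts in every replicated library.

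Genes of the primed state moved both ways in H9. All 25 on the list passed the filter, and 8 rose and 12 fell in the H9 knockouts, with a median of -0.12. Of all genes tested in H9, 14.4% rose and 15.3% fell. DUSP6, a feedback phosphatase of ERK signalling, was at 62.8 ± 2.98 CPM in the H9 knockouts and 132 ± 7.91 CPM in wild type, and ZIC5, a zinc finger factor, at 66.7 ± 3.41 CPM in the knockouts and 92.6 ± 1.65 CPM in wild type. FGF2, a growth factor that sustains primed cells, was at 295 ± 21.2 CPM in the knockouts and 207 ± 2.61 CPM in wild type, while DNMT3B, which methylates DNA de novo, was at 2020 ± 47.9 CPM in the knockouts and 1520 ± 118 CPM in wild type. These 4 passed, DUSP6 and ZIC5 lower and FGF2 and DNMT3B higher (adjusted p between 2.8e-16 and 4.75e-08, edgeR quasi-likelihood F test, Benjamini-Hochberg). In H1, 2 rose and 7 fell, DUSP6 and ZIC5 among the lower ones, where 5.01% of all genes tested rose and 7.25% fell. The summed level of the 25 genes was 11800 to 12100 CPM in the H9 knockouts and 10900 to 11600 CPM in H9 wild type. Abundant genes such as DNMT3B weigh most in this sum, while more of the 25 genes fell than rose. The 10 naive markers summed to 130 to 145 CPM in the H9 knockouts and 85.2 to 91.6 CPM in wild type. Most of this smaller sum came from 2 genes. TFCP2, which is not specific to naive cells, had means of 58.2 CPM in the H9 knockouts and 33.3 CPM in wild type, and KLF4 had 38.4 and 25 CPM.

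Genes that mark the embryo at genome activation were nearly all at low counts or at 0. Of 20 present in the tables, 3 passed the filter in H9, and CCNA1, a meiotic cyclin, was the 1 that rose (log2 fold change 1.06, adjusted p = 0.000821, edgeR quasi-likelihood F test, Benjamini-Hochberg). ZSCAN4, LEUTX and DUX4, the defining genes of that stage, had 0 counts in all 15 replicated libraries. Of 14 core pluripotency genes, 12 rose and 1 fell in H9, and 4 rose in H1. ZFP42, UTF1 and DNMT3B among them were also counted above on other lists. Of all genes tested, 14.4% rose and 15.3% fell in H9, and 5.01% rose in H1. The core gene that fell, named after its value was seen, was TERF1, a telomere-binding protein. It was at 93.1 ± 3.75 CPM in clone 9-1, 355 ± 17.1 CPM in clone 9-D and 517 ± 35.2 CPM in H9 wild type. The size of its fall thus differed between the clones. PRDM14, a repressor that supports naive pluripotency in mouse cells, rose in both lines, at 132 ± 7.44 CPM in the H9 knockouts against 99.2 ± 4.73 CPM in wild type and at 127 ± 2.23 CPM in H1 clone 1-10 against 88.2 ± 1.82 CPM in wild type (adjusted p = 6.07e-07 and 4.21e-08, edgeR quasi-likelihood F test, Benjamini-Hochberg). Of the DPPA family and the KHDC1 cluster, DPPA2, a partner of DPPA4, rose in H9 (log2 fold change 1.34, adjusted p = 4.48e-06) and KHDC1, a neighbour of DPPA5, fell by 0.28 (adjusted p = 0.0341, same edgeR test). By clone, the fall of KHDC1 was called in 9-D and not in 9-1. Its mean was 11.9 CPM in clone 9-1, 10.3 CPM in clone 9-D and 13.5 CPM in H9 wild type.

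Beside KLF4 and KLF5, 12 other Krueppel-like factors were tested in H9, where 29.7% of all genes were called. Of these, 4 rose and 1, KLF11 (named after its value was seen), fell by 0.3 (adjusted p = 0.029, edgeR quasi-likelihood F test, Benjamini-Hochberg). By clone, 4 of the 12 rose and 0 fell in 9-1, where 12.8% and 13.5% of all genes did. In 9-D 3 rose and 1 fell, where 11.5% and 12% did. KLF7 was at 69.4 ± 3.73 CPM in the H9 knockouts and 42.6 ± 4.37 CPM in wild type (log2 fold change 0.70), and it also rose in H1, at 45.3 ± 2.23 CPM in clone 1-10 and 33.3 ± 1.54 CPM in wild type (log2 fold change 0.44; adjusted p = 6.26e-10 and 8.91e-05, edgeR quasi-likelihood F test, Benjamini-Hochberg). KLF6, KLF12 and KLF13 rose in H9 by 0.27, 0.25 and 0.19 on the log2 scale (adjusted p between 0.00607 and 0.0151, same edgeR test). Among the AP-2 factors, TFAP2C was the one that passed of 2 tested.

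Markers of differentiated cells also differed between groups. Of all genes tested, 14.4% rose and 15.3% fell in H9, and 5.01% rose and 7.25% fell in H1. Of 10 tested fibroblast markers 1 rose and 5 fell in H9, and of 11 tested 1 rose and 6 fell in H1. Their summed level was 1010 to 1200 CPM in the H9 knockouts against 1110 to 1160 CPM in wild type, and 776 to 936 CPM in H1 clone 1-10 against 785 to 834 CPM in wild type, and FAP had 0 counts in every H9 library. COL1A1, the main fibrillar collagen, rose in H9, at 246 ± 19.2 CPM against 162 ± 12.8 CPM in wild type, and PDGFRB, a mesenchymal receptor, fell by 0.79 (adjusted p = 3.73e-09 and 1.4e-08, edgeR quasi-likelihood F test, Benjamini-Hochberg). In H1, 4 of 8 tested endoderm and mesendoderm markers and 6 of 12 tested neuroectoderm markers fell and 0 rose, among them EOMES by 2.07 and SIX3 by 2.57 on the log2 scale (adjusted p = 6.66e-08 and 2.27e-10, same edgeR test). In H9, 2 of 7 and 1 of 6 rose and 0 fell, FOXA2 among the former and TUBB3 the 1 neuroectoderm gene. The median log2 fold changes of these tested genes were 0.35 and -0.32. FOXA2, at 1.66 CPM in the H9 knockouts and 0.452 CPM in wild type, passed the filter through the knockout libraries, which favours a rise. SIX3, RAX and LHX2 did not pass the filter in H9. Their means were lower in the H9 knockouts, at 0.244, 0.169 and 0.122 CPM, than in wild type, at 0.581, 0.57 and 0.498 CPM. The part of differentiated cells in the marker values was not tested.

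**Figure D4:**
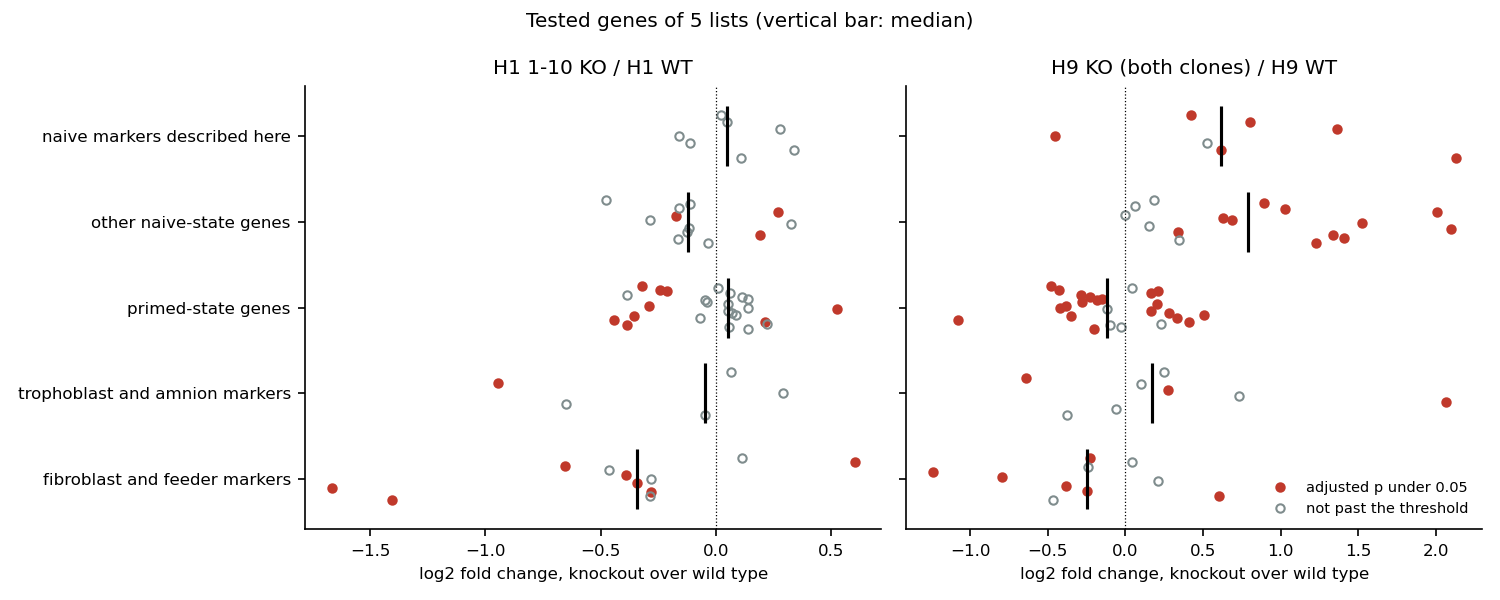
Log2 fold change, knockout over wild type, of the tested genes of 5 lists in H1 (left) and H9 (right), with filled points for genes past an adjusted p of 0.05 and a vertical bar at the median of each list. In H9 the medians are 0.61 for the markers described here, 0.79 for the other naive-state genes and -0.12 for the primed-state genes, and in H1 they are 0.05, -0.12 and 0.05.

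Genes with the pattern most like each marker were found over the 15 replicated libraries, by the root mean square difference of centred log2 CPM, with 0.5 CPM added before the logarithm, among 15802 genes. For TFCP2 they were IMPDH2 (0.126), ZNF737 (0.156) and STXBP6 (0.162). IMPDH2, an enzyme of guanine nucleotide synthesis, was at 335 ± 14 CPM in H1 clone 1-10 and 345 ± 12.2 CPM in H1 wild type, and at 269 ± 12.1 CPM in H9 clone 9-1, 290 ± 5.37 CPM in clone 9-D and 159 ± 9 CPM in H9 wild type. Among those nearest to TFAP2C were CAV1 (0.203) and HPGD (0.243), and those of DPPA3 were ZNF880 (0.207), TSHZ3 (0.234) and PKP1 (0.273). Those of SUSD2 were KREMEN2 (0.15), HLA-DRB1 (0.158) and GOLGA8A (0.159). KLF4 had HERC5 (0.266), APOL6 (0.306) and SAMD9 (0.32) as the nearest, and HERC5, an interferon-induced ligase, was at 31 ± 1.79 CPM in H1 clone 1-10 and 25.8 ± 2.35 CPM in H1 wild type, and at 263 ± 28.2 CPM in clone 9-1, 292 ± 43.1 CPM in clone 9-D and 264 ± 20.9 CPM in H9 wild type. That likeness follows the difference between the lines, which spans most of the range of KLF4. For KLF5 the nearest were ADAMTSL5 (0.244), LOC101929551 (0.286) and TSLP (0.291), all at low levels. On this scale the group means of TFCP2L1 and DPPA5 spanned 0.84 and 0.71, less than 1, so no gene was named for them. For DPPA5, whose group means ran from 0.216 CPM in H9 wild type to 0.667 CPM in H1 wild type, the span depends on the added 0.5 CPM.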

How the data were processed

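Polyadenylated RNA of 18 H1 and H9 libraries was extracted with TRIzol and made into NEBNext libraries, per the labels' protocols. STAR, featureCounts, DESeq2 and the build hg19 are named in the submitters' processing notes, with versions not given in the sources used here. The values used are raw read counts per gene as deposited by the authors. The authors' deposited tables also hold log2 fold changes and adjusted p-values from DESeq2, which are printed only where named.

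Counts were tested in R 4.3.3 with edgeR 4.0.16 (TMM, filterByExpr at 10 counts, quasi-likelihood F test, Benjamini-Hochberg adjustment over all genes tested, threshold 0.05), checked on simulated data. H1 was fitted alone, H9 with both clones as one knockout group and again by clone, and the difference between lines over 15 libraries. DESeq2 1.42.0, RLE size factors, no filter, a replicate block and leaving out each library were the alternatives. Replicates of a group differed by more than sampling noise, at 1.8 to 5.61 chi-square units per gene in pairs. Single libraries were compared as ratios of CPM with exact binomial intervals, which cover counting error only, as do floors of 3 counts. Pseudogene counting is as the authors set it, and strand use is not stated.

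The markers and gene lists were chosen with earlier results of these data known. Some genes are on more than 1 list, so the list counts are not separate results. All 10 markers are named. From each other list at most the 4 genes with the smallest adjusted p past the threshold in the H9 or H1 test are named by rule. ST6GAL1, TERF1, KLF11, GRHL1, TBX3, FGF4, ALPP and genes at 0 counts were named outside it, after their values were seen. Genes low in wild type can pass the filter through the knockout libraries alone, which favours a rise in the list counts. Genes of like pattern are the nearest 3 for markers whose group means span at least 1 on the log2 scale with 0.5 CPM added, of which 1 gene is not reported here. Promoters are RefSeq windows of 250 bases on GRCh38.p14, exon lengths come from GENCODE and served only to scale levels, and no coordinate of these builds was joined to the counts. Protein sequences were not used here.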

Additional observations from a re-analysis of the deposited data

Results flagged for a closer look

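DPPA5 in replicate 1 of H9 clone 9-D, at 0.848 CPM, stood apart from the other 5 H9 knockout libraries, which lay between 0.354 and 0.518 CPM. Its gap to the next library was 0.668 of the whole range, above the critical share of 0.625 for 6 samples, on 15 counts. Of the 10 markers, it was the 1 so marked, and chance alone marks a small share of such groups.

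In a test of the difference itself, the knockout effect differed between the lines for TFCP2, TFAP2C and DPPA3. DPPA5 also passed, but its call was not stable. The effect in H9 minus the effect in H1 was 0.75 for TFCP2, 1.08 for TFAP2C, 2 for DPPA3 and 2.21 for DPPA5 on the log2 scale. Their adjusted p were 1.42e-07, 0.00417, 0.000815 and 0.0441 (edgeR quasi-likelihood F test, Benjamini-Hochberg). TFCP2 was higher in 6 of 6 H9 knockout libraries than in all of H9 wild type, as were TFAP2C and DPPA3, while the H1 groups overlapped. DPPA5 rested on 2 to 15 counts a library and did not pass the filter on low counts in either line alone. Its call was lost with DESeq2, without that filter and in 11 of the 15 fits that left out a library. In H1 there was 1 clone, so line and clone cannot be told apart.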

How the results depend on the processing

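Every marker call in the joint H9 test was the same with DESeq2, with RLE size factors, without the filter on low counts and with a replicate block, and no marker was called in H1 or between the H9 clones under any of these. Of the marker values under the alternatives, 699 were counted as unchanged, 31 lost and 3 gained a call, and 18, none of them called, changed sign. Unchanged means the same direction and call in the tested comparisons. The single H1 libraries have no call, and their ratios were counted as unchanged where the TMM-scaled ratio stayed within the counting interval. The replicate numbers were not taken as pairs, because the labels do not say that they mark shared cultures or days. Same-numbered libraries had correlated deviations of 0.052, 0.114 and 0.043 in H1 and -0.043 to 0.074 in H9. These values are weak, but in H1 each library correlated best with its own number. With a replicate block, the count of genes called in H1 was 2926 (1473 higher and 1453 lower), against 1827 in the unblocked fit, and the log2 difference of KLF5 between clones was 0.0078, against -0.02, while the other counts stayed within 1.5 times and no marker call changed. Leaving out 1 library, the H1 count lay between 949 (without wild-type replicate 3) and 2100, with 1102 without replicate 1 of clone 1-10, and the count between the H9 clones lay between 25 and 53, against 47. In these fits the H1 log2 fold change of TFCP2L1 lay between -0.09 and 0.22, of KLF5 between -0.64 and 0.15 and of DPPA3 between -0.15 and 0.34. Between the clones, KLF4 lay between -0.04 and 0.25, KLF5 between -0.25 and 0.20, TFCP2L1 between -0.06 and 0.11, TFAP2C between -0.18 and 0.10 and SUSD2 between -0.18 and 0.03. The cause was not tested. At 2 to 15 counts a library for DPPA5, 0 to 8 for ARGFX and 0 to 2 for KLF17, no firm statement on these 3 can be made.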
